A study of Mus musculus with 24 samples.

Results

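Loss of *Sox9* was compared with its controls across all 24 libraries of the series, 12 mutants and 12 controls, to find the transcripts that moved together whatever the Cre line or age. *Sox9* encodes a transcription factor of the SoxE group that neural progenitors need to keep stem cell properties and, later, to form glia. SOX proteins bind short AT-rich DNA stretches through their HMG box, and SOX9 also drives cartilage genes such as the type II and type IX collagens. In the archicortex, the medial wall of the dorsal forebrain from which the hippocampus, dentate gyrus and cortical hem arise, it is present in radial glial progenitors.

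RNA came from archicortex dissected from mouse embryos on a mixed C57BL/6J and MF1 background. Every group held 4 libraries, and each mutant group had controls of its own age and Cre line. The first set was E13.5 Sox9fl/fl;Sox1Cre (A1 to A4) against Sox9+/+;Sox1Cre (A5 to A8), and the second held the same 2 genotypes at E12.5 (A9 to A12 and A13 to A16). In the third, E13.5 Sox9fl/fl;NestinCre (A17 to A20) was set against Sox9+/+;NestinCre (A21 to A24). Controls carried Cre too, so what Cre alone does was present on either side. The 2 Cre lines delete in different places. Hem and dentate progenitors alike lose *Sox9* with Sox1Cre. With NestinCre the loss comes later, in dentate progenitors, and most of the hem keeps the gene. The labels do not say whether a library was 1 embryo or a pool, and p-values measure the spread between libraries only.

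Libraries held 16163560 to 49445219 reads on genes, with a median of 23471441.5 in mutants and 21596341 in controls. The markers of dorsal forebrain were present in all 24: *Emx1* lay between 1463 and 2705 normalized counts and the hem ligand *Wnt3a* between 613 and 2977. A pair of libraries stood apart in markers of other cells. A1, an E13.5 Sox1Cre mutant, held the least of the choroid plexus transcript *Ttr* (5266 normalized counts, against 9719 to 70416 in the other 23), and the lowest sums of meningeal (18069), endothelial (5896) and microglial transcripts (1573). A18, a NestinCre mutant, held 220 counts of the ventral factor *Dlx2*, against 1.28 to 22.3 elsewhere. Others were uneven too. A10, an E12.5 mutant, summed to 6889 for endothelial transcripts, against 11020 to 13349 in controls. A10 and A12 held 829 and 269 counts of *Aldoc*, against 2143 and 1943 in the E12.5 mutants A9 and A11. *Ndrg2* was likewise lower in A10 and A12 (558 and 418) than in A9 and A11 (953 and 969). The part of this unevenness in the pooled changes was not tested. *Xist* put only males among the E13.5 Sox1Cre controls and only females among the E12.5 controls, while their mutant groups held 2 of either sex, and in the NestinCre set 2 mutants and 1 control were female. The count of calls is therefore also given with *Xist* as a covariate.

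*Sox9* was lower in every mutant than in every control. In the E13.5 Sox1Cre set it read 3563, 2828, 3384 and 3677 normalized counts in mutants and 5218, 5911, 5450 and 5731 in controls. At E12.5 the mutants held 2785, 1733, 2593 and 1928 and the controls 4391, 5265, 4237 and 4194. In the NestinCre set the values were 3089, 2997, 3083 and 3369 against 5636, 4979, 4586 and 5406. The pooled change was -0.82 ± 0.07 (SE) on the log2(value + 1) scale, a drop to 0.565 of the control level (limma, Benjamini-Hochberg adjusted p = 2.6e-07). Changes by set were -0.74, -1.02 and -0.71, and an F test found no difference between them at the threshold (limma, adjusted p = 0.745). The value is a whole-gene count, so reads from any part of the gene (chromosome 11, 112782224 to 112787760, plus strand, GRCm38) enter it.

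**Figure D1:**
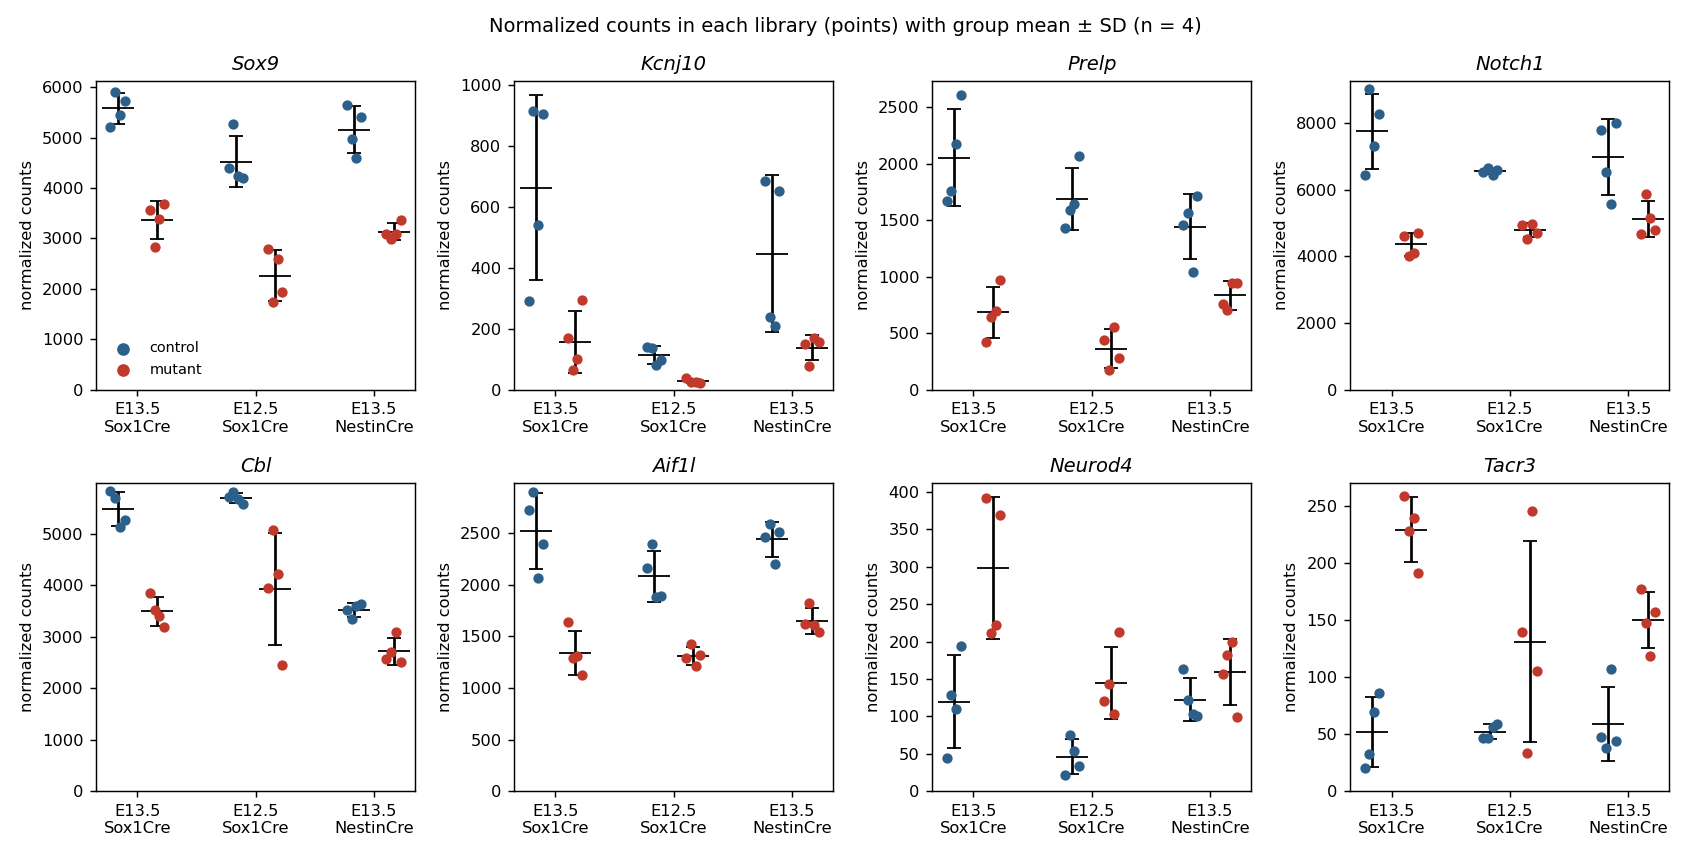
Normalized counts (y axis) of 8 genes in each of the 24 libraries, by set (x axis), with controls in blue, mutants in red, and black lines for the mean ± SD of 4 libraries. All mutants lie below all controls of their set for *Sox9*, *Prelp*, *Cbl* and *Aif1l*, while *Tacr3* overlaps at E12.5 and *Neurod4* in the NestinCre set.

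The pooled fit called 362 of 16454 genes (2.2%) at an adjusted p under 0.05, 219 lower in mutants (1.33%) and 143 higher (0.869%). Of these, 351 moved in 1 direction in all 3 sets, 209 down and 142 up, whereas 32.6% of all genes tested kept 1 direction. The same libraries made the call and gave the signs, so this difference is largely built in and adds no evidence. The other 11 were led by the 2 Sox1Cre sets, with a NestinCre change near 0 or of the other sign (*Rps7*, -1.08, -0.54 and 0.06). Most changes were small. The median was -0.36 among the 209 genes that fell and 0.42 among the 142 that rose, 221 of the 351 moved by less than 0.5, and 53 by 1 or more on the log2 scale. Protein-coding genes made up 300 of the 351 and pseudogenes 22. Without libraries A1 and A18 the fit called 759 genes, 719 of them in 1 direction, and 319 of these 719 were among the 351. With *Xist* as a covariate 364 were called.

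Most of these genes passed in the pooled fit only. In the model with 1 mean per group, 217 of the pooled calls passed the threshold in no single set, and 5 passed in all 3. Single sets gave 152 calls at E13.5 with Sox1Cre, 119 at E12.5 and 11 with NestinCre in this model, which shares 1 spread over all libraries. Fitted on its own 8 libraries, each set gave 44, 76 and 10. The change was smallest in the NestinCre set for 226 of the 351 (64.4%), against 42.5% of 5009 genes that kept 1 direction without a call. The median absolute change of the 351 was 0.41 in either Sox1Cre set and 0.26 in the NestinCre set. Such an order is a description, since the same libraries chose the genes.

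A set that had no part in the choice was read for the genes called in the other 2. Of 190 genes called from the E12.5 Sox1Cre and NestinCre sets, 146 (76.8%) had the same sign in the E13.5 Sox1Cre set fitted alone, beside 56.8% of all genes tested, and 87 (45.8%) also had an unadjusted p under 0.05 there, beside 5.4%. The 2 E13.5 sets called 77 genes, of which 76 (98.7%) kept their sign at E12.5, beside 58.8%, and 56 (72.7%) passed an unadjusted 0.05, beside 12.7%. From the 2 Sox1Cre sets, 310 genes were called; 238 (76.8%) moved the same way with NestinCre, beside 54.8%, and 101 (32.6%) passed, beside 5.04%. The median absolute change of these 310 genes was 0.52 where they were chosen and 0.19 in the NestinCre set. Away from *Sox9* (genes over 10 Mb away or on other chromosomes) the sign was kept by 137 of 179, 70 of 71 and 226 of 298. With A1 left out of the E13.5 Sox1Cre set, 154 of the 190 kept their sign there, beside 60.6% of all genes, and with A18 left out of the NestinCre set, 236 of the 310 did, beside 56.0%.

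**Figure D2:**
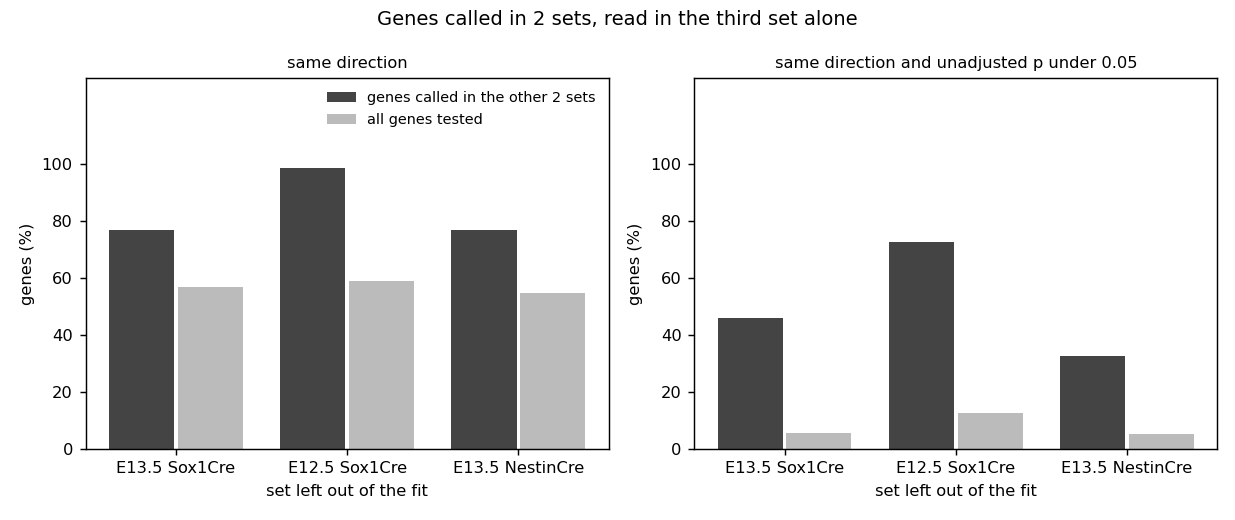
Share of genes (y axis, percent) with the same direction (left) or the same direction and an unadjusted p under 0.05 (right) in a set left out of the fit (x axis), for genes called in the other 2 sets (dark bars) and all genes tested (light bars). The dark bar is taller in each pair, from 32.6% against 5.04% to 98.7% against 58.8%.

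Predicted genes aside, *Kcnj10* and *Prelp* fell most among well-expressed genes, those with a mean of at least 100 normalized counts. *Kcnj10*, the inward rectifier potassium channel of astrocytes, had 22.9 to 295 normalized counts in the 12 mutants (median 87.9) and 81.5 to 914 in the controls (median 264). Mutants lay below controls of their own set at E12.5 and with NestinCre, and overlapped them by 1 library at E13.5 with Sox1Cre. The pooled change was -1.89 ± 0.26 (SE, adjusted p = 0.000106), with set changes of -2.16, -1.98 and -1.55. *Prelp*, a small leucine-rich matrix proteoglycan, ranged from 175 to 968 in mutants (median 672) and from 1040 to 2608 in controls (median 1657), with no overlap at all, and fell by 1.57 ± 0.20 (adjusted p = 5.91e-05). Its set changes were -1.62, -2.32 and -0.77. *Ndrg2*, abundant in astrocytes, fell by 1.15 ± 0.16 with no overlap within any set (2525 against 3887 in the median).

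Further falls of this size were *Zfp277*, a zinc finger protein (-1.46), *Lrrc75b* (-1.23), *Mmd2*, a seven-pass membrane protein (-1.21), and *Col9a3* (-1.16). *Slc27a1*, a fatty acid transport protein, dropped by 0.85 ± 0.10, from a control median of 855 to 477 normalized counts, and no mutant (363 to 638) reached the lowest control (649). All were called by limma, *Zfp277* with the only change among them that differed between sets (F test adjusted p = 0.0323): -1.82 and -2.26 with Sox1Cre but -0.30 with NestinCre. Without the E12.5 set *Zfp277*, *Lrrc75b* and *Col9a3* lost their calls (limma, adjusted p = 0.106, 0.0868 and 0.381). Without the block *Lrrc75b*, *Mmd2* and *Col9a3* lost theirs.

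**Figure D3:**
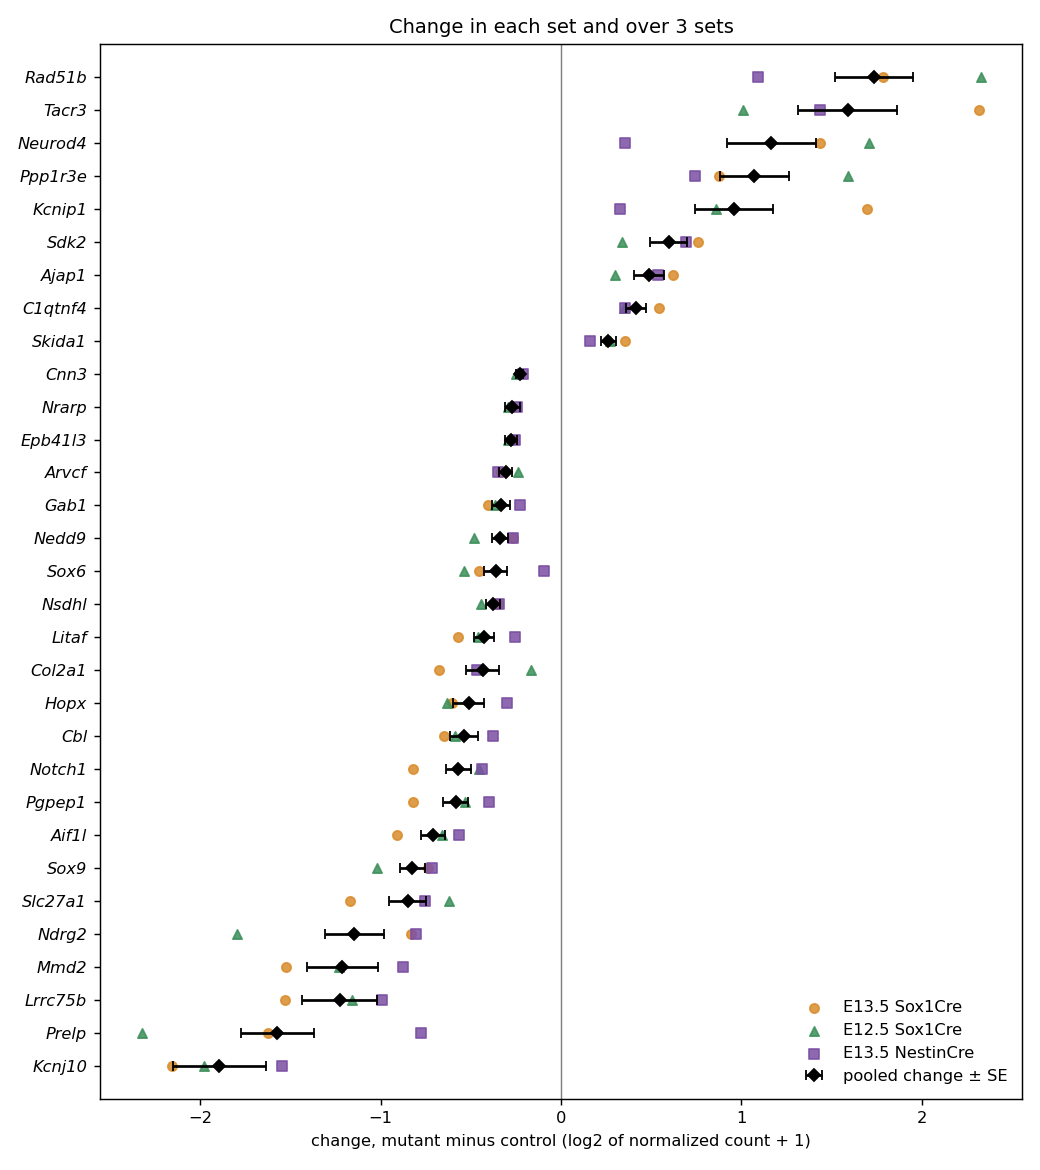
Change of 31 named genes, mutant minus control, in log2 units (x axis), pooled over 3 sets (black diamonds, bars ± SE) and in each set (coloured symbols). All symbols of a gene lie on 1 side of 0, from -1.89 for *Kcnj10* to 1.74 for *Rad51b* in the pooled fit. Most of these genes were named only because they moved in 1 direction in all 3 sets, so this agreement comes from the selection.

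Several genes with a smaller p moved less. *Aif1l*, an actin-bundling relative of Aif1, held 1130 to 1827 normalized counts in mutants and 1885 to 2899 in controls, without overlap across all 24 libraries, and fell by 0.71 ± 0.07 (adjusted p = 8.16e-07). *Cnn3*, the actin-binding calponin 3, fell by only 0.23 ± 0.02, yet the highest mutant (11052) stayed below the lowest control (11317). *Nsdhl*, an enzyme of cholesterol synthesis, went down by 0.38 ± 0.04 (911 to 1124 against 1189 to 1493). *Arvcf*, a p120-family catenin, *Epb41l3*, a band 4.1 protein that ties membrane proteins to the cytoskeleton, and *Nedd9*, a Cas-family adhesion scaffold, fell by 0.31 ± 0.04, 0.28 ± 0.03 and 0.34 ± 0.04. *Pgpep1* (-0.58), *Txndc9* (-0.25) and *Litaf*, an endosomal membrane protein (-0.43), fell as well. For 32 genes, 0.194% of those tested, all 4 mutants lay on 1 side of all 4 controls in each set. Of these, 27 were lower and 5 higher. All 32 were called, which such a separation in the same libraries makes nearly certain. Without A1 and A18 such genes numbered 55, 45 of them lower (0.334% of those tested). In an exact permutation test within sets (343000 arrangements, two-sided), *Kcnj10* and *Notch1*, whose groups overlapped in 1 set, had p = 1.17e-05, and *Neurod4*, likewise, 0.00014. The test can give no less than 5.83e-06, which any gene without overlap in all 3 sets receives. Its p-values are unadjusted, and the same libraries chose these genes, so they describe the overlap and add no evidence.

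Promoter sequences of 4 genes that fell are shown because they hold letters of the core motif that SOX proteins bind. They run from 250 bases before to 50 bases after a RefSeq transcription start (build GRCm38.p6), 5′ to 3′ on the gene's strand, in lower case with the matches in capitals. The motifs searched were AACAAT and ACAAAG on both strands (ATTGTT and CTTTGT on the other), which do not overlap here. *Arvcf* and *Hopx* have other starts without a match. The windows are *Prelp* at chr1:133921352-133921651 (minus strand), *Kcnj10* at chr1:172340960-172341259 (plus), *Arvcf* at chr16:18380533-18380832 (plus) and *Hopx* at chr5:77095218-77095517 (minus).
Prelp: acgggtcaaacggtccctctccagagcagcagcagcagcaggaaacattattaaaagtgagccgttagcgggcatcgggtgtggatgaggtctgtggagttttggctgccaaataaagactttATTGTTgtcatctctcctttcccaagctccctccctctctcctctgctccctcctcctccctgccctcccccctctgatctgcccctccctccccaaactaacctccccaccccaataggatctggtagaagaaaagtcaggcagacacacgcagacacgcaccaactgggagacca
Kcnj10: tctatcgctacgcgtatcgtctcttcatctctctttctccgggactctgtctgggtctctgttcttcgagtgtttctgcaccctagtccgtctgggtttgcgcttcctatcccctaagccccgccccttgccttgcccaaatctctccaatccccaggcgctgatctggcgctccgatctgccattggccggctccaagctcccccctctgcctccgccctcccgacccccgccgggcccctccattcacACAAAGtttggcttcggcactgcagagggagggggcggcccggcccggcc
Arvcf: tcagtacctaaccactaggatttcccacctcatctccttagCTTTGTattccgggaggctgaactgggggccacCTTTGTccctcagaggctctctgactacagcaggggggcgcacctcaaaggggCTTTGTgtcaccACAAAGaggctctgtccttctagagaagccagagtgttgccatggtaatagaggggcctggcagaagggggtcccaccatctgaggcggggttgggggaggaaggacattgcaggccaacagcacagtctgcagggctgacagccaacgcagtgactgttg
Hopx: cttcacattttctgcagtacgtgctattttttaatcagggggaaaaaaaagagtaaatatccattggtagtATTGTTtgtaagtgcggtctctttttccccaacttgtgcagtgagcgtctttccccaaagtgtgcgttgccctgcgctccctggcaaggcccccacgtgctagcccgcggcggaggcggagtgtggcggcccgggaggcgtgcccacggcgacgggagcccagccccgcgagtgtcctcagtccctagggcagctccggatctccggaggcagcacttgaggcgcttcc
The match in *Kcnj10* starts at base 251, the first transcribed base, and those of *Prelp* and *Hopx* at bases 124 and 72 of the window. Of 197 promoters of the genes that fell in all 3 sets, 24.9% held either motif, as did 23.1% of 117 promoters of genes that rose and 19.1% of 14955 promoters of all genes tested, or 27.0% of all 32851 promoters in the table. AACAAT was in 9.64%, 2.56% and 6.15% of the first 3 groups and ACAAAG in 18.8%, 20.51% and 14.04%. *Aif1l*, *Cbl* and *Notch1*, which also fell, held neither in these windows, and *Sox9* had no entry. A match is a description of letters and not a binding site.

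Fewer genes rose. *Tacr3*, the neurokinin B receptor, had 34.0 to 258 normalized counts in mutants (median 167) and 20.4 to 107 in controls (median 47.4). The groups overlapped at E12.5, where 1 mutant read below all 4 controls. Its pooled change was 1.59 ± 0.28 (adjusted p = 0.0016), from 2.32, 1.01 and 1.44. Without the E13.5 Sox1Cre set *Tacr3* lost its call (limma, adjusted p = 0.0675). *Neurod4*, a proneural basic helix-loop-helix factor, had a median of 191 in mutants (99.6 to 391.5) and 102 in controls (21.9 to 195) and rose by 1.17 ± 0.25 (adjusted p = 0.011). Mutants and controls did not overlap in either Sox1Cre set (1.44 and 1.71), and did with NestinCre (0.36). The call of *Neurod4* was lost without the block, without the E13.5 Sox1Cre set (limma, adjusted p = 0.0923) or without the E12.5 set (0.289). *Kcnip1*, a potassium channel subunit (0.96 ± 0.22), and *Ppp1r3e*, a targeting subunit of protein phosphatase 1 (1.07 ± 0.19), rose as well. *Kcnip1* changed by 1.70, 0.86 and 0.33 by set. It lost its call without the block, the E13.5 Sox1Cre set (limma, adjusted p = 0.224) or the E12.5 set (0.212). *Ppp1r3e* lost its call without the E12.5 set (limma, adjusted p = 0.150). *Rad51b*, a gene of homologous recombination, rose by 1.74 ± 0.22, with 220 to 859 counts in mutants and 67.9 to 314 in controls. *Tmem132b* (1.04, adjusted p = 0.0286) and *Lrfn2*, a synaptic adhesion protein (0.87, adjusted p = 0.047), were close to the threshold. *Tmem132b* missed it when A4, A11 or A16 was left out (adjusted p up to 0.0543), and *Lrfn2* in 18 of the 24 fits with 1 library left out (up to 0.087).

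Small, even rises were found in *C1qtnf4*, a secreted C1q-domain protein, and *Skida1*. *C1qtnf4* lay between 169.3 and 235 counts in mutants and 115 and 169.4 in controls, and rose by 0.41 ± 0.06 (adjusted p = 0.000106). *Skida1* rose by 0.26 ± 0.04 without overlap in any set, and *Ajap1*, an adherens junction protein, by 0.49 ± 0.08. The call of *Ajap1* was lost without the E13.5 Sox1Cre set (limma, adjusted p = 0.0785).

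Gene lists are described by their counts and medians beside those of all genes (2.2% called, median change -0.0013). The lists and their members were chosen with earlier results of these data known, so a share above 2.2% adds no evidence. Among 24 measured members of the Notch pathway, which keeps progenitors undifferentiated, 3 fell and none rose (list median -0.04). The receptor *Notch1* had 4013 to 5879 normalized counts in mutants (median 4691) and 5570 to 9012 in controls (median 6611). Mutants and controls overlapped in the NestinCre set only, and the pooled change was -0.57 ± 0.07 (adjusted p = 2.76e-05; -0.82, -0.45 and -0.44 by set). *Nrarp*, a feedback inhibitor induced by Notch, fell by 0.27 ± 0.04, and the coactivator *Maml2* by 0.19 ± 0.04 (adjusted p = 0.0223). *Maml2* lost its call whichever of the 3 sets was left out (limma, adjusted p = 0.115, 0.263 and 0.0697). *Nrarp* lost its call without the E12.5 set (limma, adjusted p = 0.0551). No ligand was called, nor were *Hes1* and *Hes5*, the classical targets. *Heyl* (-0.24) and *Hey2* (-0.25), other targets, had adjusted p of 0.32 and 0.11.

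In the Wnt list 3 of 38 fell and none rose (median -0.0047). The ligand *Wnt7b* fell by 0.39 ± 0.08 (adjusted p = 0.011), although its ranges overlapped over all libraries (2724 to 7236 against 3450 to 6233). Its call was lost without the block, without the E13.5 Sox1Cre set (limma, adjusted p = 0.214) or without the NestinCre set (0.0613). The receptor *Fzd1* fell by 0.25 ± 0.06 in the pooled fit, from -0.36 and -0.33 with Sox1Cre and -0.06 with NestinCre, and lost its call when either Sox1Cre set was left out. *Rnf43*, a ubiquitin ligase that removes Frizzled receptors, fell by 0.38 ± 0.09 (-0.43, -0.34 and -0.37 by set). The call of *Rnf43* was lost without the E12.5 set (limma, adjusted p = 0.255) or the NestinCre set (0.136). *Wnt7a* had a larger change of -0.56 with an adjusted p of 0.13.

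In the list of SOX9 targets known from cartilage, 3 of 13 measured members were called, the collagen genes *Col2a1*, *Col9a2* and *Col9a3*, all lower, with a list median of -0.15. *Col9a1*, the other type IX chain, stood at -0.15 with an adjusted p of 0.834. *Col2a1* lay at 4063 in the median of mutants (2902 to 7516) and 5453 in controls (4204 to 7117) and fell by 0.43 ± 0.09 (adjusted p = 0.011). *Col9a2* fell by 0.52 ± 0.12 and *Col9a3* by 1.16 ± 0.30 (adjusted p = 0.0399). *Col9a2* was no longer called whichever of the 3 sets was left out (limma, adjusted p = 0.0717, 0.219 and 0.0579). *Col2a1* lost its call without the E13.5 Sox1Cre set (limma, adjusted p = 0.156) or the NestinCre set (0.111). The call of *Col9a3* was lost in 17 of 24 fits with 1 library left out (adjusted p up to 0.0718), and without A1 and A18 2 of the 3 remained. Of 27 matrix and adhesion genes none was called by limma or edgeR and 2 were by DESeq2 (7 had an unadjusted p under 0.05, median -0.11), *Agrn* (-0.20) and *Itgb8* (-0.25) having the smallest p. Without A1 and A18 limma called 1 of these 27 genes.

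Signal transduction downstream of receptor tyrosine kinases gave 2 falls among 27 genes (median -0.00089). *Cbl*, the ubiquitin ligase that marks such receptors for degradation, had 2457 to 5070 counts in mutants and 3341 to 5828 in controls, with no overlap within sets, and fell by 0.54 ± 0.08 (adjusted p = 0.000204). The docking protein *Gab1* fell by 0.33 ± 0.05. The feedback inhibitors *Dusp6* (0.41) and *Spry1* (0.39) had adjusted p of 0.25 and 0.28.

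Of 24 radial glial and astrocytic markers, 2 fell, *Hopx* among them (median -0.08). *Hopx*, a homeodomain-only cofactor of neural stem cells, had a median of 261 in mutants (147 to 371) and 340 in controls (223 to 527), and fell by 0.51 ± 0.08 (adjusted p = 0.00107; -0.60, -0.63 and -0.30 by set). *Vim*, the intermediate filament vimentin, missed the threshold (-0.14, adjusted p = 0.059). Among 11 other SOX genes *Sox6* fell by 0.36 ± 0.06 (adjusted p = 0.00193), mainly with Sox1Cre (-0.46 and -0.54, against -0.10 with NestinCre; F test adjusted p = 0.409), and *Sox8*, another SoxE gene, stood at 1.09 with an adjusted p of 0.051. edgeR, DESeq2 and limma without A1 and A18 each called 2 of these SOX genes and 3 of the radial glial markers.

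Of 20 genes of neurogenesis, *Neurod4* rose while *Neurog2* and *Nhlh1*, factors of committed precursors and newborn neurons, fell by 0.26 ± 0.07 and 0.37 ± 0.09 (adjusted p = 0.0415 and 0.0362; list median 0.02). *Nhlh1* changed by -0.69, -0.36 and, with NestinCre, -0.06. *Neurog2* lost its call in 14 and *Nhlh1* in 15 of the 24 fits with 1 library left out. In 16 genes of the cortical hem and dorsal midline (median 0.07), 10 of Cajal-Retzius cells (0.02), 13 of hippocampal patterning (-0.04) and 27 of proliferation (-0.08) there was no call by limma or edgeR. Unadjusted p was under 0.05 for 1, 2, 3 and 7 of them, and DESeq2 called 0, 2, 0 and 1. Without A1 and A18, limma called 4 of the proliferation genes and none of the other 3 lists.

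**Figure D4:**
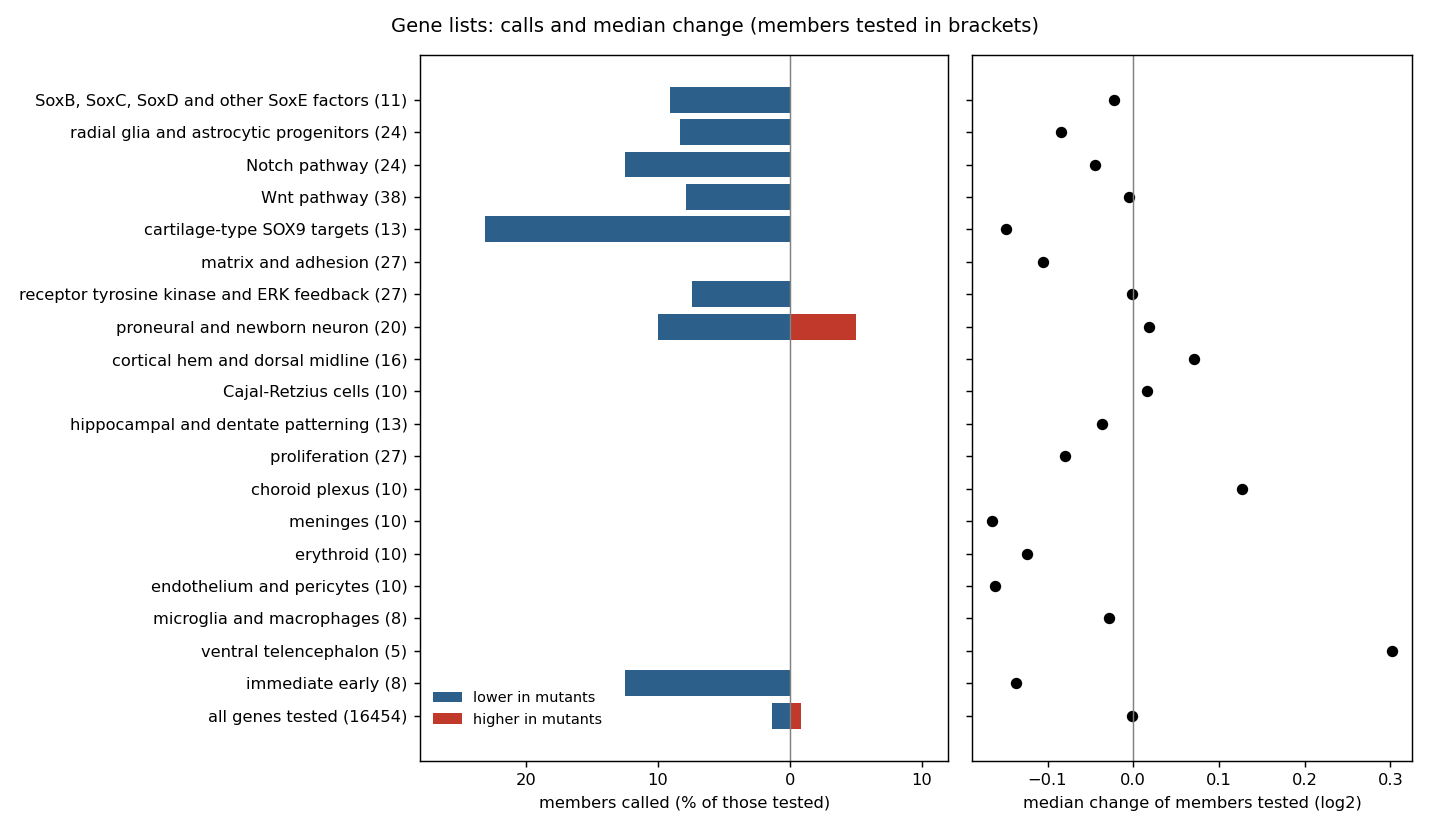
Share of list members called (left, percent of those tested, blue lower and red higher in mutants) and median change of the members in log2 units (right) for 19 gene lists and all genes tested. Calls are 23.1% of 13 cartilage-type targets and 8.33% of 24 radial glial genes, against 2.2% of all genes. Lists were chosen with earlier results of these data known.

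Markers of other cells the dissection can hold did not give a call in limma, edgeR or DESeq2: 10 genes each of choroid plexus (median 0.13), meninges (-0.16), erythroid cells (-0.12) and endothelium with pericytes (-0.16), 8 of microglia (-0.03) and 5 of ventral telencephalon (0.30). Unadjusted p was under 0.05 for 0, 1, 1, 0, 0 and 1 of them. Choroid plexus transcripts, mostly *Ttr*, summed to 8743 to 95122 counts in mutants (median 42431) and 18473 to 72364 in controls (36214). All 10 listed ventral transcripts summed to 50.4 to 110.6 in 11 mutants and to 748 in A18, against 26.9 to 129 in controls. Meningeal transcripts, mostly *Col3a1*, summed to 18069 to 50179 in mutants (median 37699) and 31648 to 55284 in controls (39438). Erythroid ones, mostly *Hbb-y*, had medians of 141732 and 173101. Endothelial ones, mostly *Kdr*, summed to 5896 to 14803 (11980) and 11020 to 13349 (12116), and microglial ones, mostly *Mrc1*, to 1573 to 3325 (2500.3) and 2068 to 3023 (2532). A1 was the lowest mutant for choroid plexus, meninges, endothelium and microglia. None of these lists had a member at 0 in all libraries. Fewer cells of a type and less RNA per cell cannot be told apart in such tissue. Among 8 immediate early genes, which respond to handling, *Ier2* fell by 0.21 ± 0.04. The sum over all 10 listed genes had a median of 5672 in mutants (4518 to 6402) and 6072 in controls (5123 to 7335), and its part in the other changes was not tested.

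The position of called genes was uneven. Chromosome 12 held 40 calls among 628 genes (6.37%) and chromosome 14 held 30 among 562 (5.34%), against 2.2% of all genes, in equal numbers up and down on the former (20 and 20) and with 14 up and 16 down on the latter. In stretches of 20 Mb, chromosome 12 had 4 calls of 80 genes, 9 of 86, 8 of 72, 7 of 109, 7 of 127 and 5 of 154 from its start to its end. Chromosome 14 had 0 of 63, 6 of 125, 16 of 163 (9.82%), 7 of 139, 1 of 14, 0 of 35 and 0 of 23. *Rad51b* and *Zfp277* are on chromosome 12, *Ndrg2* and *Ppp1r3e* on chromosome 14. The animals were of mixed background, and for genes of these 2 chromosomes inherited background and the loss of *Sox9* cannot be told apart. Without A1 and A18 the shares were 9.24% and 8.36%, against 4.61% of all genes.

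Within 10 Mb of *Sox9* itself 19 of 266 genes were called (7.14%), and 9 of the other 990 genes of chromosome 11 (0.909%). *Mettl23*, a methyltransferase gene 4.06 Mb away that overlaps *Srsf2* and other genes, had the smallest p of all (-1.29 ± 0.06, adjusted p = 4.25e-12). Its 12 mutants held 174 to 221 normalized counts. Controls with Sox1Cre held 497 to 571 and those with NestinCre 345 to 391 with no overlap between the 3 ranges. *Nat9* (0.48), *Rnf157* (0.28), *Sdk2*, a synaptic adhesion protein (0.60), and *Mxra7* (-0.53) are in the same stretch. Mutants are homozygous for the floxed allele and controls lack it, so sequence carried along with that allele, other inherited background and the loss of *Sox9* cannot be told apart for these genes. Without genes of this stretch 335 calls were left.

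**Figure D5:**
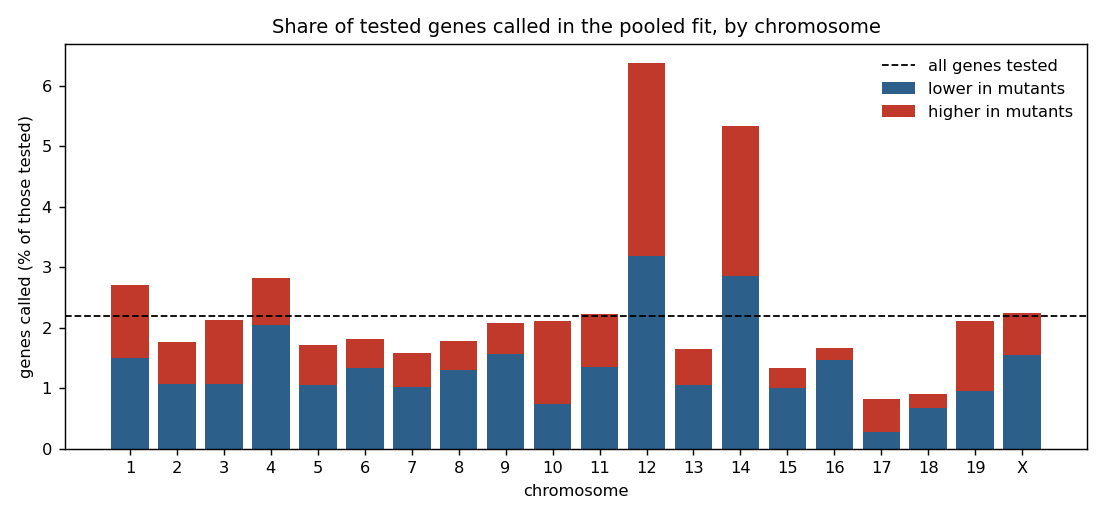
Share of tested genes called in the pooled fit (y axis, percent) by chromosome (x axis), split into genes lower (blue) and higher (red) in mutants. The dashed line marks 2.2% over all genes, with chromosomes 12 (6.37%) and 14 (5.34%) farthest above it, and chromosomes 4 (2.82%), 1 (2.70%), X (2.24%) and 11 (2.23%) closer to it.

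Several predicted genes were present or absent by group. *Gm7868*, a processed pseudogene on chromosome 12, held 161 to 233 normalized counts in all 12 mutants, 0 to 4.26 in Sox1Cre controls and 80.4 to 111 in NestinCre controls. *Gm9008* held 234 to 709 in 11 mutants and 4.05 in the E12.5 mutant A10, with 0 to 6.52 in Sox1Cre controls and 261 to 345 in NestinCre controls. *Gm3375* went the other way, with 0 to 3.08 in 10 mutants, 432 in A3 and 451 in A12, and 366 to 893 in all controls but A24, which was at 0. Such copies share sequence with other loci, and their counts are uncertain. *AC149090.1* and *Gm7993*, the other predicted genes named for a large change or small p, moved by -2.21 and 0.81. In the NestinCre set *Gm7993* held 926 to 1052 counts in mutants, and 910, 1075, 1021 and, in A24, 444 in controls. Its call was lost without the E13.5 Sox1Cre set (limma, adjusted p = 0.0706) or the E12.5 set (0.119).

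The change differed between the 3 sets for 6 genes in all (F test, 0.0365%; 1347 at an unadjusted p under 0.05), and 3 of these were also called in the pooled fit: *Zfp277*, *Gm7868* and *Gm45456*. The remaining 3 were *Nit1*, *Gm10524* and *Gm44429*, with no pooled call. Among the 362 pooled calls, 73 had an unadjusted F test p under 0.05. edgeR found 5 such genes, DESeq2 85, and the fit without A1 and A18 24. In pairs, 0 genes differed between E12.5 and E13.5 with Sox1Cre, 7 between the lines at E13.5 and 3 between NestinCre and Sox1Cre at E12.5.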

How the data were processed

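Bulk RNA-seq of dissected archicortex (24 libraries, 6 groups of 4) was analysed. The authors trimmed reads with Trimmomatic 0.36, aligned them to GRCm38 with STAR 2.5.2a, estimated gene counts with RSEM 1.2.31 and applied DESeq2 size factors. Each deposited signal is thus a gene's count over its library's size factor, with no log taken. All values were whole multiples of 1 read (tolerance 0.1 reads), so whole reads were recovered for edgeR and DESeq2. The strand setting was not given in the sources used here, so overlapping and antisense genes are uncertain. Names and positions came from GENCODE M21 (51719 of 51912 genes).

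Genes with 10 or more in at least 4 libraries were fitted with limma 3.58.1 (R 4.3.3; lmFit, eBayes with trend) to log2(value + 1), mutant against control with the set as a block (20 residual degrees of freedom), two-sided, Benjamini-Hochberg over 16454 genes. Adjusted p-values are from limma unless another tool is named. Set changes and the F test (2 degrees of freedom) used 1 mean per group. Changes of low genes are understated on this scale. Named genes were *Sox9*, then, among called genes of 1 direction with a mean of at least 100, the 10 rises and 10 falls of largest change, the 10 of smallest p in either direction and up to 15 without overlap in any set, then called list members; a few that the rule names are not reported here. The members and lists were chosen with earlier results of these data known. Scripts were tested on simulated data. Alternatives were pseudocounts, filters, quantile normalization, edgeR 4.0.16, DESeq2 1.42.0, robust and weighted fits, *Xist* as a covariate, other blocks, and leaving out sets, regions or libraries.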

Additional observations from a re-analysis of the deposited data

Results flagged for a closer look

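Of 288 groups of 4 libraries examined for the named genes (predicted genes left out), 11 had 1 library whose gap to the nearest other exceeded Dixon's 95% limit, and chance alone gives about 1 in 20. *Rad51b* stood apart in 3 groups: 859 normalized counts in the E12.5 Sox1Cre mutant A12, 431 in the NestinCre mutant A18 and 314 in the NestinCre control A22. A18 was also apart for *Ndrg2* (1456) and *Nat9* (213). The others were *Tacr3* in the NestinCre control A23 (107), *Tmem132b* in the E12.5 control A14 (227), *Arvcf* in the E13.5 Sox1Cre control A5 (3832), *Pgpep1* in the E12.5 mutant A10 (1622), *Sox6* in the E13.5 Sox1Cre mutant A1 (4759) and *Hopx* in the NestinCre control A21 (265). All of these genes but *Tmem132b* kept their call with any 1 library left out, and *Tmem132b* kept it without A14.

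*Zfp277* was the only named gene other than predicted ones whose change differed between the 3 sets (limma F test, adjusted p = 0.0323), lower in mutants by 1.82 and 2.26 log2 units with Sox1Cre and by 0.30 with NestinCre.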

How the results depend on the processing

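The pooled count of 362 genes was within 1.5 times of itself for both pseudocounts (362 and 372), both filters (273 and 304), quantile normalization (340), edgeR (357 and 350), the robust fit (355), *Xist* as a covariate (364), 1 mean per group (415), and without the NestinCre set (310), genes near *Sox9* (335) or genes on X and Y (350). It was 631 with DESeq2, 793 with array weights and 759 without A1 and A18 (chosen after seeing the data), and 162 without the block, 190 without the E13.5 Sox1Cre set and 77 without the E12.5 set. Leaving out 1 library gave 258 to 708 calls, the highest without A1, the library of lowest array weight (0.235); with any other library left out the count stayed between 258 and 389. The count of genes whose change differed between sets, 6, became 85 with DESeq2, 172 with array weights and 24 without A1 and A18, and ranged from 2 to 58 with 1 library left out (58 without A1, 13 without A10, 2 without A3, A18 or A21 and 3 without A20, A22 or A24). The cause was not tested. *Sox9* stayed called in every fit that tested it, and no named gene changed direction in any fit. Of the 53 named genes, 16 lost their call without the block, 17 without the E13.5 Sox1Cre set, 20 without the E12.5 set and 9 without the NestinCre set. No paired analysis was possible because no replicate number is shared between groups. Reads carry no molecular identifiers, and depth limits the low genes most.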
